A study of Meriones unguiculatus with 18 samples.

Results

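The genes described here, Fasn, ACACB, Gpam, Dgat1, Pnpla3, Mlxipl, Plin4 and Vldlr, belong to the making, storage and uptake of fatty acids and triglycerides in the liver. They were chosen by name, in any letter case, from the deposited table of 13172 assembled liver transcripts (unigenes), of which 3767 carried a gene name. All 8 names were present, in 9 rows, because Vldlr had 2, and its row with the higher mean was used. The study fed male Mongolian gerbils (Meriones unguiculatus), a desert rodent, either ordinary feed, called ND for normal diet, or a high-fat feed called HFD, after 1 week of adaptation, and sequenced liver poly(A) RNA at 4, 8 and 16 weeks (4W, 8W and 16W), with 3 libraries per group. The HFD mixed 80.5% of the ordinary feed with egg yolk powder (10%), an ingredient labelled lard bile (7%), cholesterol (2%) and bile salt (0.5%), so the groups differed in cholesterol and bile salt as well as in fat. No genetic change of the animals is stated, and the sources used here give no ages. The design text counts 18 gerbils and the treatment protocol 36, so libraries may be single animals or pools, and p-values measure the spread between libraries.

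Hepatocytes build fatty acids from acetyl-CoA when sugar and insulin are plentiful. Acetyl-CoA carboxylases make malonyl-CoA, fatty acid synthase joins it into palmitate, and acyltransferases attach the fatty acids to glycerol until triglyceride is formed, which is stored in lipid droplets or exported in very-low-density lipoprotein (VLDL). The transcription factors ChREBP (encoded by Mlxipl), which responds to sugar, and SREBP-1c, which responds to insulin, turn on the genes of this pathway, and its excess activity is a feature of fatty liver disease.

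Values are the authors' normalized expression levels, on a scale where the 18 libraries share nearly 1 set of sorted values (column sums of 157561 to 158005, highest value 28764), so sequencing depth is unknown and a value reflects a rank within its library. A unigene at the lowest value of a library (0 in HFD libraries, 0.0167 to 0.141 in ND libraries) is called not detected. The 8W libraries did not follow the others unigene by unigene (Pearson's r over unigenes, themselves not independent, on the log scale was 0.00114 to 0.0320 over 72 pairs, compared with 0.771 to 0.858 over 12 pairs of the same group at 4W and 16W), and were left out. Among the 12 libraries used, 3910 to 5273 unigenes were not detected in an ND library and 2053 to 3012 in an HFD library. The HFD libraries numbered 1 stood apart from those numbered 2 and 3 at the same time (r of 0.771 to 0.817 over 4 pairs, compared with 0.842 and 0.858 over 2 pairs), so the results are also given without them where a named call or a count changed. The sets of unigenes detected run with diet, so diet and the way libraries were made or assembled cannot be told apart in any comparison of HFD with ND. Of the hepatocyte markers that check the labelled tissue, Alb, for albumin, was at 28764 in every ND library and at 5760 to 28764 in HFD libraries, and Tat and Cps1 were detected in all 12, but Apoa2 was not detected in 10 and Arg1 in 6.

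Tests were made with limma on log2(value + 1) in 1 fit of the 12 libraries (9487 unigenes, each averaging 1 or more), and a gene with a Benjamini-Hochberg adjusted p under 0.05 is called. Fold changes are on that log2(value + 1) scale, which understates changes at low levels. Levels of different genes are not compared because no source used here names the unit that was normalized. The exception is the summed levels of cell type markers, which are dominated by the genes with the highest levels and are only a rough guide.

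Mlxipl, the sugar-responsive regulator, was higher on HFD at 4W and lower on HFD at 16W. At 4W its levels in ND libraries 1 to 3 were 19.0, 21.4 and 12.3, and in HFD libraries 41.1, 39.6 and 43.5. Every HFD library was above every ND library, by a ratio of means of 2.35. At 16W the ND levels were 27.1, 40.1 and 24.3 and the HFD levels 6.50, 3.37 and 10.8. The groups again did not overlap, now with HFD at 0.226 of the ND mean. Mlxipl rose on HFD at 4W by log2 1.22 (SE 0.32, n = 3 each, limma adjusted p = 0.0299) and its 16W fold change was -2.08 (SE 0.32, limma adjusted p = 0.000524). The difference between those diet effects was -3.30 (95% interval -4.30 to -2.30, limma adjusted p = 0.00215). Of 9487 unigenes, 24 (0.253%) were called in opposite directions at the 2 times, and 18 of these (0.19%), Mlxipl among them, were higher at 4W and lower at 16W. At 4W, limma no longer called it with the replicate number as a block (adjusted p = 0.0554) or on leaving out ND 4W 1 (adjusted p = 0.0618), ND 4W 3 (0.109), HFD 4W 1 (0.0594), HFD 4W 2 (0.0672) or HFD 4W 3 (0.0893), or both HFD libraries numbered 1 (0.0851), with log2 fold changes of 0.998 to 1.29 in these fits, whereas the call at 16W was kept in every alternative run.

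**Figure D1:**
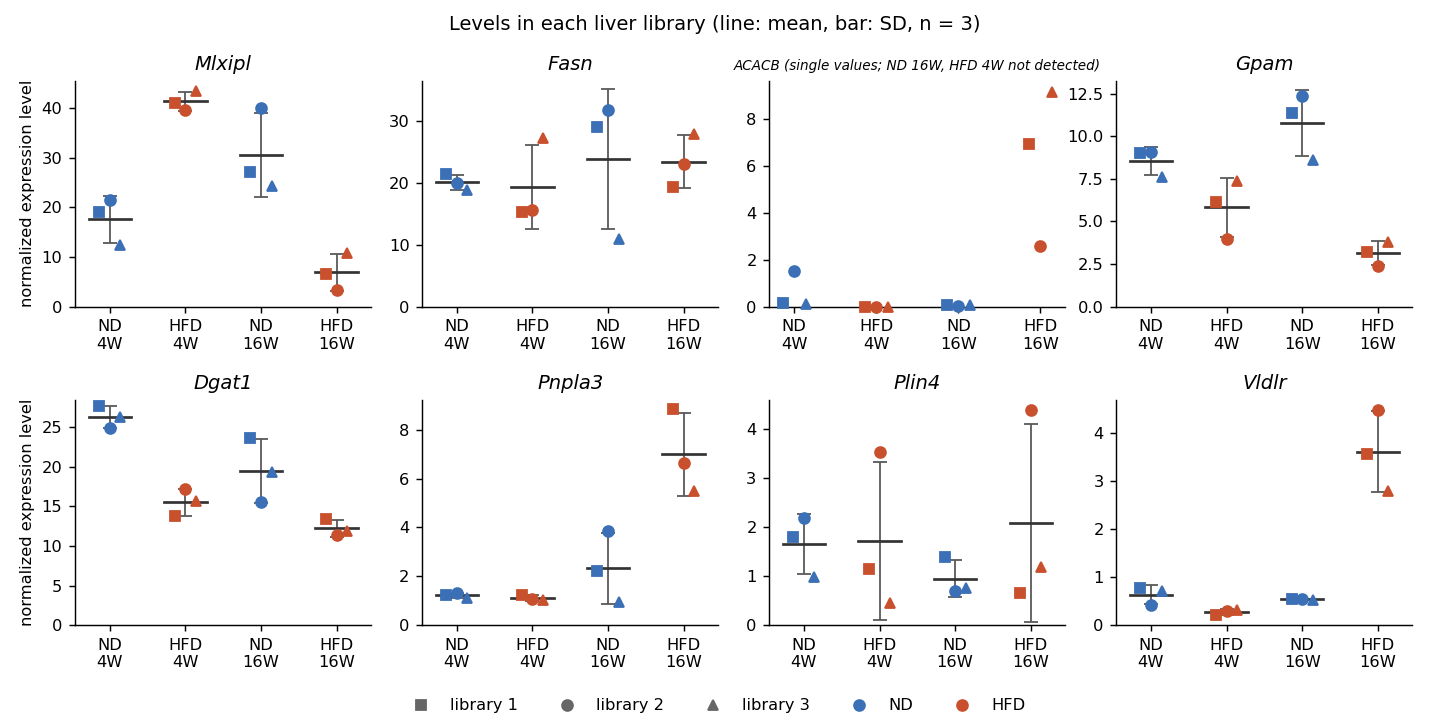
Normalized expression level (vertical axis, linear, from 0) of each of the 8 genes in the 12 liver libraries by diet and time; points are libraries, lines means and bars SD (n = 3), with single values alone for ACACB. Mlxipl lies at 39.6 to 43.5 on HFD at 4W and at 3.37 to 10.8 at 16W, while Vldlr, Pnpla3 and ACACB are highest on HFD at 16W.

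Fasn, the synthase that makes palmitate, was detected in all 12 libraries and was called in no comparison. Its levels were 21.4, 20.02 and 18.9 in ND at 4W and 15.3, 15.7 and 27.2 in HFD. At 16W they were 29.1, 31.8 and 10.97 in ND and 19.3, 23.2 and 27.96 in HFD. The groups overlapped at both times, and the widest spread was in ND at 16W, where library 3 was the low one. The 95% interval of the diet effect ran from -0.85 to 0.65 at 4W and from -0.66 to 0.84 at 16W on the log2 scale. A change within these bounds was not excluded with 3 libraries per group.

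ACACB, the acetyl-CoA carboxylase of the mitochondrial surface, whose malonyl-CoA restrains fatty acid oxidation, was detected in 4 of 12 libraries. It was listed at 0 in the 3 HFD libraries of 4W and was not detected in the ND libraries of 16W. In ND at 4W it had 1.51 in library 2 and was not detected in the others. In HFD at 16W its levels were 6.92, 2.60 and 9.16. It was called as higher on HFD at 16W (limma adjusted p = 0.000836), and no fold is given because the group compared was not detected. Its partner in the cytosol, Acaca, was not among the names. ACACB and Vldlr passed the minimum mean through the HFD 16W libraries alone (mean over the other 9 libraries 0.214 and 0.481), so their passing already required a high value there. With no such minimum both were still called at 16W.

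Gpam, the mitochondrial acyltransferase that starts glycerolipid synthesis, and Dgat1, which adds the last fatty acid to make triglyceride, were lower on HFD. Gpam levels at 16W were 11.4, 12.4 and 8.64 in ND and 3.20, 2.38 and 3.78 in HFD, a ratio of means of 0.289 with no overlap (log2 -1.52, SE 0.22, limma adjusted p = 0.000375). At 4W they were 9.01, 9.11 and 7.64 in ND and 6.15, 3.97 and 7.39 in HFD. The 4W groups did not overlap either, yet the difference was not called (log2 -0.52, 95% interval -1.01 to -0.03, limma adjusted p = 0.162). The diet effects on Gpam at 4W and 16W were not called as different (-1.002, SE 0.32, limma adjusted p = 0.0706). This changed without HFD 4W 2 (-1.22, limma adjusted p = 0.0316), at a mean of at least 5 (limma adjusted p = 0.028) and among unigenes detected in all 12 libraries (limma adjusted p = 0.0299).

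Dgat1 had levels of 27.7, 24.9 and 26.4 in ND and 13.8, 17.2 and 15.7 in HFD at 4W. At 16W it had 23.7, 15.6 and 19.3 in ND and 13.4, 11.4 and 11.9 in HFD. Each HFD library was below each ND library of its time, with ratios of means of 0.591 and 0.627. Dgat1 was the gene of the 8 that was called as lower at both times (log2 -0.73, SE 0.16, limma adjusted p = 0.0111 at 4W; -0.62, SE 0.16, adjusted p = 0.0099 at 16W), and of 9487 unigenes 777 (8.19%) were called in the same direction at both. It was called in all alternatives run at both times. The diet effects differed by 0.11 (95% interval -0.37 to 0.60, limma adjusted p = 0.839). In the order of group means, HFD 16W was lowest, HFD 4W and ND 16W overlapped, and ND 4W was highest.

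Pnpla3, a lipase and acyltransferase of the droplet surface and a target of SREBP-1c and ChREBP in mouse and human, showed no diet effect that was called at 4W. Its levels there were 1.24, 1.30 and 1.11 in ND and 1.23, 1.05 and 1.03 in HFD. At 16W they were 2.22, 3.84 and 0.938 in ND and 8.84, 6.62 and 5.498 in HFD. Every HFD library lay above every ND library at 16W, at a ratio of means of 2.99 (log2 1.34, SE 0.31, limma adjusted p = 0.00648). The test of the difference between times did not pass (1.41, SE 0.45, limma adjusted p = 0.0692), but it passed without ND 16W 2 (1.73, limma adjusted p = 0.029) and among unigenes detected in all 12 libraries (limma adjusted p = 0.0207).

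Plin4, a perilipin that coats lipid droplets, best known from adipose tissue and muscle, was not called in any comparison. Its levels were 1.79, 2.19 and 0.979 in ND and 1.14, 3.53 and 0.457 in HFD at 4W. At 16W they were 1.38, 0.704 and 0.763 in ND and 0.658, 4.39 and 1.19 in HFD. One HFD library at each time, number 2, was above all others, and neighbouring groups in the order of means overlapped. The 95% interval of the diet effect was -1.20 to 0.99 at 4W and -0.61 to 1.58 at 16W.

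Vldlr, the receptor that takes up triglyceride-rich lipoproteins and is low in normal liver, was higher on HFD at 16W. At 4W its levels were 0.778, 0.409 and 0.704 in ND and 0.207, 0.297 and 0.321 in HFD, with no overlap but no call (limma adjusted p = 0.485). At 16W they were 0.547, 0.541 and 0.527 in ND and 3.56, 4.48 and 2.79 in HFD, a ratio of means of 6.71 (log2 1.57, SE 0.29, limma adjusted p = 0.00139). The diet effect differed between times by 1.92 (SE 0.40, limma adjusted p = 0.0126). The transcript name of the other Vldlr row differs only in its last number, and that row had too low a mean (0.494) to be tested. It was not detected in any ND library and had 1.85, 1.76 and 0.929 in HFD at 16W, with 0, 0.218 and 0.739 in HFD at 4W.

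By comparison, 2 of the 8 genes were called at 4W, where 12.1% of all tested unigenes were (4.89% higher, 7.22% lower; Mlxipl was higher and Dgat1 lower), and 6 of 8 at 16W, where 35.2% were. At 16W, 3 were higher (ACACB, Pnpla3, Vldlr) and 3 lower (Gpam, Dgat1, Mlxipl), compared with 15.3% of unigenes called higher and 19.9% lower. Leaving aside ACACB and Vldlr, for the minimum mean named above, 4 of 6 were called at 16W. Where a tested unigene was detected in every library, the share called was 49.2% at 16W and 16.3% at 4W, so the share of these genes that was called is to be read against a high background. Diet groups did not overlap for 4 of the 8 genes at 4W (28.6% of unigenes) and for 6 of 8 at 16W (46.7%). The median log2 fold change of the 8 was -0.23 at 4W and 0.29 at 16W, beside -0.03 and -0.12 over all tested unigenes. The difference between the diet effects was called for 3 of 8 (10.1% of unigenes), as higher for ACACB and Vldlr (5.5% of unigenes) and lower for Mlxipl (4.61%). Leaving aside ACACB and Vldlr again, it was called for 1 of 6, so nothing is read from the higher calls. Rescaling by median ratios moved the median of all unigenes from -0.03 to 0.10 at 4W and from -0.12 to 0.01 at 16W, and the 4W calls from 464 higher and 685 lower to 597 and 505. With it the same 2 and 6 genes were called in the same directions, Dgat1 at log2 -0.54 and -0.47, while the uncalled 4W values of Fasn, Pnpla3 and Plin4 changed sign. Without the HFD libraries numbered 1 the 4W calls over all unigenes were 610 higher and 547 lower. The balance of the 4.89% and 7.22% shares at 4W thus depends on those libraries.

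**Figure D2:**
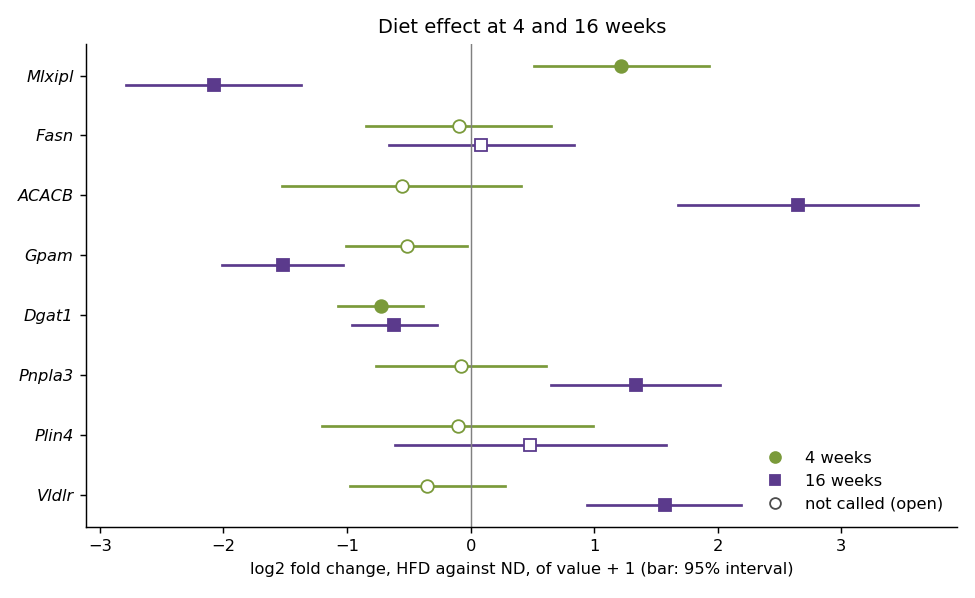
Log2 fold change of HFD against ND (horizontal axis, on value + 1) at 4W (circles) and 16W (squares), with 95% intervals from limma; filled symbols were called. Mlxipl moves from 1.22 to -2.08, Dgat1 stays at -0.73 and -0.62, and Fasn and Plin4 are open at both times; the ACACB value depends on the pseudocount because its ND 16W group was not detected.

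Change with time was also compared within each diet. These comparisons share libraries with the diet comparisons above, so the same HFD 16W values enter both. On ND none of the 8 genes was called between 4W and 16W (limma, 0.379% of unigenes called, 0.211% higher and 0.169% lower), and 2 had an unadjusted p under 0.05. These were Mlxipl, whose ND mean went from 17.6 ± 4.74 to 30.5 ± 8.43 (SD, n = 3), and Dgat1, from 26.3 ± 1.40 to 19.5 ± 4.06. On HFD 5 of 8 were called (17% of unigenes), 3 as higher (9.19%) and 2 as lower (7.78%), and for 6 the 4W and 16W libraries did not overlap (34.4%). Of the 3 higher calls, ACACB and Vldlr entered the test through the HFD 16W libraries alone, and without them 3 of 6 were called. Mlxipl, at 41.4 ± 1.93 on HFD at 4W, fell to 6.89 ± 3.74 at 16W (limma log2 -2.54, adjusted p = 0.000323). Vldlr rose from 0.275 ± 0.06 to 3.61 ± 0.848 (log2 1.84, limma adjusted p = 0.001) and Pnpla3 from 1.10 ± 0.11 to 6.98 ± 1.70 (1.90, limma adjusted p = 0.00146). ACACB was listed at 0 at 4W and was called as higher (limma adjusted p = 0.00133). Gpam was called as lower from 5.84 ± 1.73 to 3.12 ± 0.702 (log2 -0.71, limma adjusted p = 0.0493), a call lost in 16 of 22 alternatives, among them the replicate number as a block (limma adjusted p = 0.072), and the fits without both HFD libraries numbered 1 (0.193), HFD 4W 3 (0.175), HFD 4W 1 (0.126), HFD 16W 2 (0.167), HFD 16W 1 (0.0975) or any 1 ND library (0.051 to 0.0654).

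The same pathways held 163 genes on 8 lists, of which 35 beyond the 8 genes were in the table and 31 were tested. At 4W 2 of the 31 were called as higher (4.89% of all unigenes were) and 5 as lower (7.22%), with a median log2 fold change of -0.08. At 16W 4 were called as higher (15.3%), or 5 without the HFD libraries numbered 1, and 13 as lower (19.9%), with a median of -0.60 beside -0.12 over all unigenes. The lower calls include Dbi and Apoe (4W) and Fabp5 (16W), which passed the minimum mean through ND libraries of that time alone. No gene of fatty acid elongation and desaturation was among the names, and of a panel of 15 central lipogenic genes, such as Srebf1, Acly and Scd1, only Insig1 and Dgat2 were.

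Of the 13 genes on the list of ChREBP targets and sugar entry 3 were tested, and these were called as lower at 16W (19.9% of all unigenes; 49.2% of those detected in every library were called in either direction) and not at 4W (7.22% lower), with medians of -2.34 and 0.11. Slc2a2, the glucose transporter GLUT2, had levels of 9.70, 20.3 and 17.5 in ND at 16W and 3.30, 0.738 and 3.37 in HFD (log2 -2.34, SE 0.38, limma adjusted p = 0.000723). Its HFD libraries were all below its ND libraries. Tkfc, the triokinase of fructose breakdown, had 64.2, 66.1 and 36.8 in ND and 18.2, 6.16 and 14.6 in HFD (log2 -2.09, limma adjusted p = 0.00228). The diet effect differed between times for Slc2a2 (-2.50, limma adjusted p = 0.0143) and for Tkfc (-2.19, limma adjusted p = 0.0357). The Tkfc difference was lost in 8 of 22 alternatives, among them the fit without the HFD libraries numbered 1 (limma adjusted p = 0.0706), and the other 7 each left out 1 library (0.0684 to 0.0823). Mean levels of Slc2a2 were 3.51 at 4W and 15.8 at 16W on ND and 4.09 and 2.47 on HFD, and neither change with time was called (limma adjusted p = 0.0567 and 0.311). For Tkfc they were 26.8 and 55.7 on ND and 31.2 and 13.0 on HFD, again with neither called (limma adjusted p = 0.263 and 0.0698). Of the 3 tested genes on this list 1 was called as lower with time on HFD (7.78% of all unigenes), as Mlxipl was.

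Among regulators, of 8 tested besides Mlxipl 1 was called as lower at 4W (7.22% of all unigenes) and 2 at 16W (19.9%). None was called as higher (4.89% and 15.3%). Mlx, the partner with which ChREBP binds DNA, had levels of 15.2 to 22.0 in ND and 18.6 to 26.4 in HFD at 4W, and 17.4 to 22.0 and 15.9 to 18.8 at 16W, with log2 fold changes of 0.21 and -0.18, neither called (limma adjusted p = 0.483 and 0.447). Rxra, the shared partner of nuclear receptors, fell on HFD at 16W (50.3 ± 4.56 to 26.2 ± 6.30, log2 -0.94, limma adjusted p = 0.00167), as did Scap, the escort of SREBP (log2 -0.60, limma adjusted p = 0.0118). Insig1, which holds the SREBP and Scap complex in the endoplasmic reticulum, was called as lower at 4W (-1.74, limma adjusted p = 0.000534) but not at 16W (-0.34, 0.252), and that difference was called (1.40, limma adjusted p = 0.0158), though not without the HFD libraries numbered 1 (limma adjusted p = 0.0823). Nr1h2, the oxysterol receptor LXR beta, had log2 fold changes of 0.74 and 0.50 (limma adjusted p = 0.0527 and 0.103).

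On the list of fatty acid synthesis, Tkt, the transketolase of the pentose phosphate pathway, rose on HFD at both times. Its levels at 16W were 29.5, 39.2 and 27.96 in ND and 138, 200.5 and 154 in HFD (log2 2.31, SE 0.21, limma adjusted p = 1.22e-05), and at 4W the log2 fold change was 0.74 (limma adjusted p = 0.039). The 4W call was lost in 9 of 23 alternatives, among them the replicate block (limma adjusted p = 0.0563), the fits without the HFD libraries numbered 1 (0.0777), ND 4W 1 (0.112), ND 4W 2 (0.125), HFD 4W 1 (0.0737), HFD 4W 2 (0.0944) or HFD 4W 3 (0.1). Taldo1 of the same pathway rose at 16W (70.8 ± 9.39 to 98.9 ± 9.94, log2 0.48, limma adjusted p = 0.0285), a call lost without ND 16W 3 (0.109) or HFD 16W 2 (0.084) and in a fit of 16W alone (0.0654). G6pdx, the first enzyme of that pathway and a source of NADPH, was at 0.547 to 0.704 in ND and 0.886 to 1.88 in HFD at 16W, too low to be tested.

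Of 6 acyl-CoA synthetase and acyl-CoA binding genes, 2 were called as lower at 4W (7.22% of all unigenes) and 4 at 16W (19.9%). Slc27a2, a very-long-chain acyl-CoA synthetase and transporter, was not called at 4W (131.5 to 286.5 in ND, 308 to 328 in HFD, log2 0.80, limma adjusted p = 0.217) and fell at 16W (249 to 304 in ND, 31.1 to 112.5 in HFD, log2 -2.23, limma adjusted p = 0.00119). Acsm1, a medium-chain synthetase of mitochondria, fell at 4W and 16W (log2 -1.65 and -3.67) and Acsm2 at 16W (-1.42). Dbi, an acyl-CoA binding protein, was called as lower at both times but was detected in 8 of 12 libraries, among the HFD libraries in the 2 numbered 1, and neither call held when values were summed by name (limma adjusted p = 0.248 and 0.431). Dbi passed the minimum mean through the ND 4W libraries alone, so passing already required high values there. Dgat2, the other enzyme that closes triglyceride synthesis, was detected in 8 libraries, with 1.74, 2.74 and the lowest value in ND and 3.33, 7.70 and 2.64 in HFD at 16W (log2 1.23, limma adjusted p = 0.14).

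Both genes tested on the droplet and lipolysis list besides Plin4 fell at 16W (19.9% of all unigenes were called as lower) and were not called at 4W. Ces1d, a triglyceride hydrolase, had 15.5, 22.6 and 21.3 in ND at 16W and 1.80, 0.239 and 2.10 in HFD (log2 -3.22, SE 0.34, limma adjusted p = 4.24e-05). Hsd17b11, a droplet dehydrogenase, had 263, 246 and 207 in ND and 121, 87.5 and 117 in HFD (log2 -1.13, limma adjusted p = 0.000665). For both the diet effect differed between times (-3.04 and -1.56, limma adjusted p = 0.00409 and 0.00464).

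On the uptake and export list, besides Vldlr, 2 of 8 tested were called as higher (15.3% of all unigenes) and 2 as lower (19.9%) at 16W. Lrp1, the receptor for lipoprotein remnants, rose at 4W (log2 0.73, limma adjusted p = 0.0195) and 16W (145 ± 22.1 to 388 ± 66.8, log2 1.42, limma adjusted p = 0.000132). At 4W limma no longer called Lrp1 on leaving out ND 4W 1 (adjusted p = 0.0762), ND 4W 3 (0.0563), HFD 4W 2 (0.057) or HFD 4W 3 (0.0705). Slc27a1, the insulin-sensitive fatty acid transporter of muscle and fat, rose at 16W from 5.48 to 7.45 in ND to 22.3 to 29.8 in HFD (log2 1.78, limma adjusted p = 4.94e-05). Slc27a4 was not called (-0.16, limma adjusted p = 0.486). Their transcript names differ only in the last number, so both are open to shared reads. Sar1b, the coat protein that carries large lipoproteins out of the endoplasmic reticulum, fell at 16W (91.5 ± 7.76 to 27.9 ± 8.36, log2 -1.72, limma adjusted p = 6.01e-05). Apob, the structural protein of VLDL, had log2 fold changes of 0.06 and 0.05 (limma adjusted p = 0.947 and 0.935). Apoa4, an apolipoprotein of lipid absorption, was called as lower at 4W alone of the 2 times (log2 -2.04, limma adjusted p = 0.0247), a call lost without ND 4W 1 (0.0883) or HFD 4W 3 (0.0977) and in a fit of 4W alone (0.0551), and the difference between times was not called (1.23, limma adjusted p = 0.346). The row named Fabp5, a fatty acid binding protein, was listed at 0 in all 6 HFD libraries and was called as lower at 16W (limma adjusted p = 0.00246), with 1.15, 9.37 and 11.5 in ND. That named Apoe, a ligand of remnant receptors, was listed at 0 in 5 of 6 HFD libraries and was called as lower at 4W (limma adjusted p = 0.00301). Fabp5 passed the minimum mean through the ND 16W libraries alone and Apoe through those of ND 4W. Passing already required high values there, so nothing is read from either call. Apoc2, an activator of lipoprotein lipase, was not tested and was above the lowest value in the HFD libraries numbered 1 alone.

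**Figure D3:**
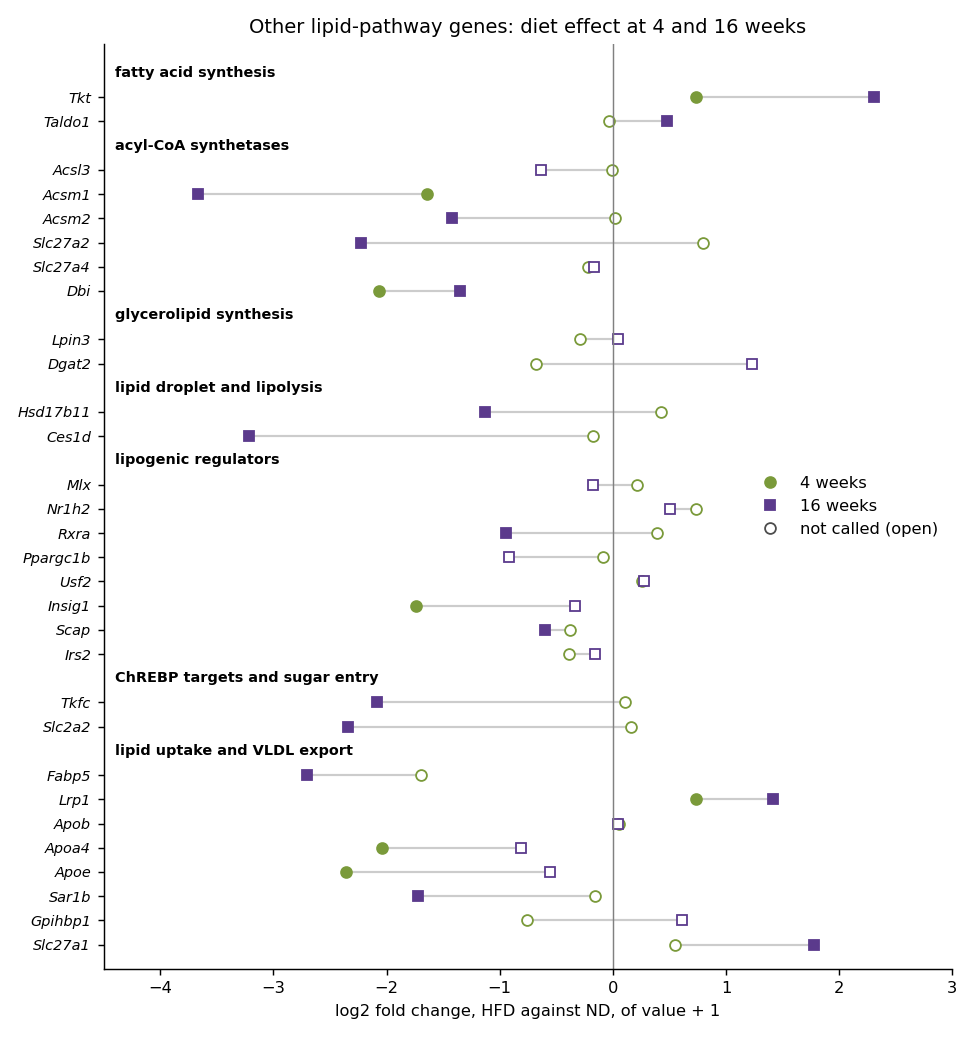
Log2 fold change of HFD against ND (horizontal axis, on value + 1) of 30 of the 31 other tested genes of the lipid lists at 4W (circles) and 16W (squares), grouped by list; filled symbols were called. Slc2a2, Tkfc and Ces1d lie between -0.18 and 0.16 at 4W and between -2.09 and -3.22 at 16W, while Tkt, Lrp1 and Slc27a1 lie above 0.

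For each called gene the 2 named unigenes with the most similar pattern were found among those detected in all 12 libraries (2198, less the gene itself), by the root mean square difference of centred log2(value + 1) over the 12 libraries. For Mlxipl these were Slc27a2 (0.313) and Vwce (0.367), where the median over all candidates was 1.12. Slc27a2 ran through group means of 194, 319, 268 and 64.5 in ND 4W, HFD 4W, ND 16W and HFD 16W, the same order as Mlxipl. For Dgat1 they were Znf672 (0.132) and Adprhl2 (0.136, median 0.584), and for Gpam Pdk1, a kinase that holds back pyruvate dehydrogenase (0.188), and ZFHX4 (0.192, median 0.732). For Vldlr they were Lamb3 (0.161), a chain of laminin, and Evc (0.162, median 0.80). Pnpla3 was closest to PCDHGB6 (0.295) and ACTR2 (0.311, median 0.884), and ACACB to Gpx7 (0.47) and Kif12 (0.502, median 1.21). The candidates share libraries and group structure with the genes they are compared to.

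**Figure D4:**
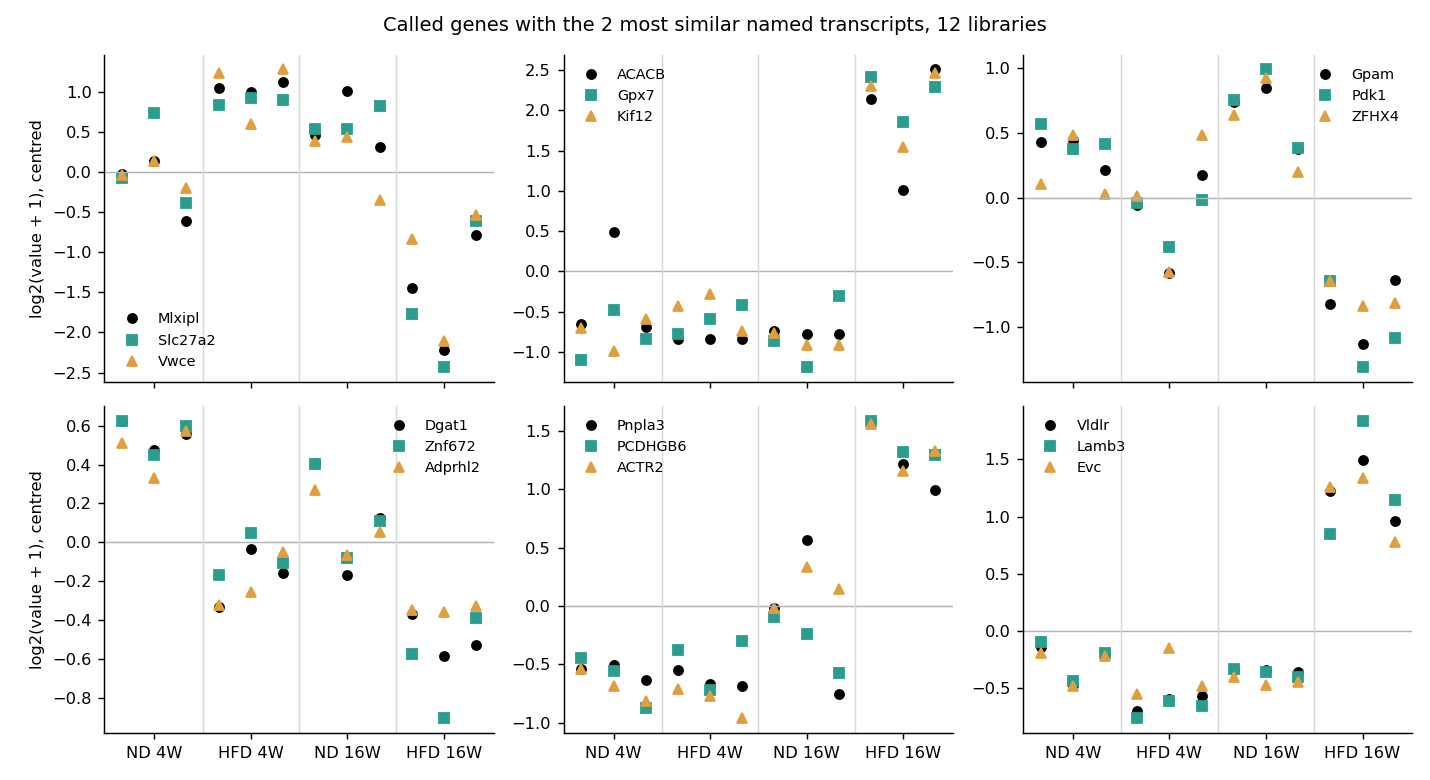
Log2(value + 1), centred on each gene's mean over 12 libraries (vertical axis), of the 6 called genes (black circles) and the 2 named unigenes most like each (squares, triangles), by library within ND 4W, HFD 4W, ND 16W and HFD 16W. Slc27a2 follows Mlxipl with a root mean square difference of 0.313, and Lamb3 follows Vldlr with 0.161.

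Markers of other liver cells moved with diet in the same libraries. In these bulk samples fewer cells of a type and less RNA per cell cannot be told apart. Of 19 macrophage markers 6 were in the table and 5 tested. At 4W 4 were higher (4.89% of all unigenes), and the summed level of the 6 was 20.6 to 29.1 in ND and 119 to 151 in HFD. At 16W 4 were higher (15.3% of all unigenes) and Cd5l lower (19.9%), and C1qc was listed at 0 in all 3 HFD libraries. The 16W sums were 43.9 to 58.6 in ND and 1514 to 1903 in HFD. Most of the HFD sum was Gpnmb alone, at 1522, 1522 and 1263 in libraries 1 to 3. Of 14 stellate cell and fibroblast markers 6 were tested. Of these 3 were higher at 4W (4.89% of all unigenes), with sums of 34.9 to 36.9 in ND and 78.6 to 96.6 in HFD. At 16W 6 were higher (15.3%), with sums of 27.8 to 40.2 and 713 to 1587. Without the HFD libraries numbered 1 these counts were 2 and 5. Lum passed the minimum mean through the HFD 16W libraries alone, so its higher call at 16W already required high values there. The 4W call of Tagln (limma adjusted p = 0.0484) was lost in 12 of 23 alternatives. The 16W call of Reln (limma adjusted p = 0.025) was lost in 6 of 23. Of 13 hepatocyte markers 5 were in the table and 4 tested. None was called at 4W, and Cps1 was lower at 16W (limma adjusted p = 0.02), where 19.9% of all unigenes were. That call was lost without ND 16W 1, ND 16W 2 or HFD 16W 2 and in a fit of 16W alone (limma adjusted p of 0.0553 to 0.0633). Hepatocyte sums, mostly Alb, were 29756 to 30898 in ND and 9614 to 31026 in HFD at 4W. At 16W they were 30864 to 31636 in ND and 6253 to 30148 in HFD. Alb was at 28764 in every library but HFD 4W 2 (8090), HFD 16W 1 (8090) and HFD 16W 2 (5760). These values reflect ranks within a library, so the size of the drops is not a measure of hepatocyte number. Apoa2 was not detected in 10 of the 12 libraries. The part of these shifts in the 16W values of Mlxipl, Gpam, Dgat1, ACACB, Pnpla3 and Vldlr was not tested. HFD 16W 2, the library with the lowest hepatocyte sum and the highest macrophage and stellate sums, also had the lowest Mlxipl, Gpam, Dgat1 and ACACB and the highest Vldlr and Plin4 of its group. Its Pnpla3 and Fasn levels were the middle ones. Without this library all 6 calls at 16W remained. The other HFD 16W libraries also had macrophage and stellate sums above those of ND, so leaving it out does not test the part of these shifts. Of the cholangiocyte, adipocyte and skeletal muscle markers none was among the names, of the endothelial ones Vwf alone (0 to 1.29, not tested), and of the lymphocyte ones Cd4 alone (not called at either time).

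**Figure D5:**
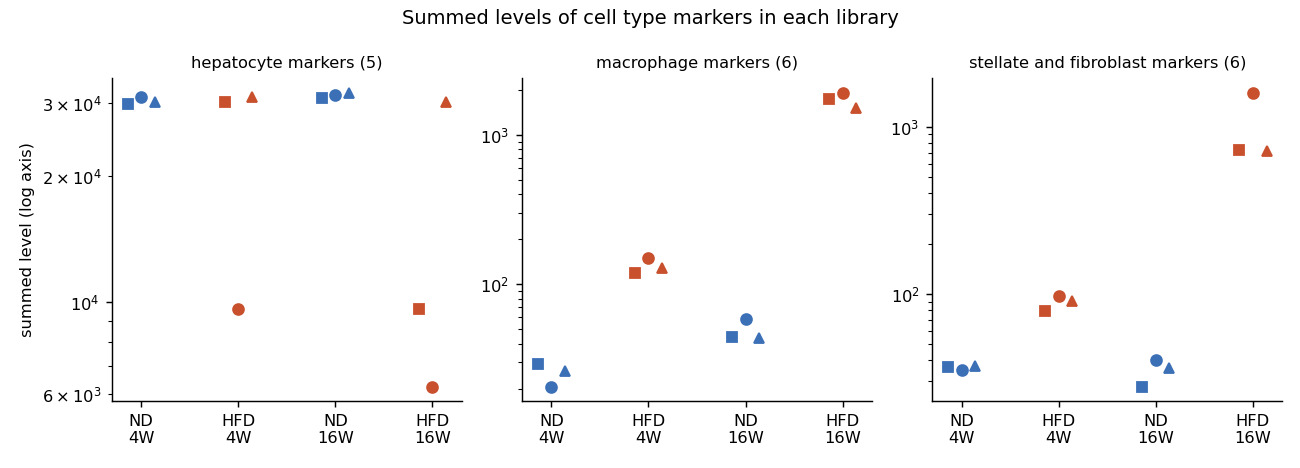
Summed normalized level (log axis) of the hepatocyte, macrophage and stellate or fibroblast markers in the table for each of the 12 libraries; blue is ND, red HFD, and squares, circles and triangles are libraries 1, 2 and 3. Macrophage sums reach 1514 to 1903 on HFD at 16W, where they are mostly Gpnmb, compared with 43.9 to 58.6 on ND.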

How the data were processed

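Per the labels' protocols, liver RNA with an integrity number above 7 was sequenced (HiSeq, paired reads). Reads were assembled with Trinity 2.4.0 and the longest transcript per cluster was kept. The submitters' processing notes list Salmon and edgeR, neither with a version or a role. The deposited values are a never-negative expression signal that the authors normalized. No source used here says how, but the 18 columns share their sorted values to within 0.995% over the top 3000 rows, as quantile normalization gives. Depth is therefore unknown.

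From these values log2(value + 1) was fitted with limma 3.58.1 in R 4.3.3 (intensity trend, 4 groups, no covariate) for the 9487 unigenes that averaged 1 or more across the 12 libraries of 4W and 16W. The diet effect at each time, the difference between those effects and the change with time in each diet were tested, and p-values were adjusted by Benjamini-Hochberg over all unigenes. Code was tested on simulated data. All 8 names are in the gerbil RefSeq annotation. Named besides the 8 genes are those called among the lipid lists, at most 4 per list and comparison, and a fixed panel of 15. A few uncalled or untested list genes (Mlx, Nr1h2, G6pdx, Slc27a4, Apob, Apoc2) were added after their values were seen, and a few others are counted but not reported here by name. The genes and lists were chosen with earlier results of these data known. Groups were called not overlapping with undetected values counted as tied. Alternatives were other pseudocounts (0.1 and 5), minimum means (none and 5), median-ratio rescaling, a replicate block, a term for or omission of the HFD libraries numbered 1, summing by name, single times and leaving out each library.

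Replicate numbers recur in each group. Deviations from group means of libraries with the same number correlated at 0.397, 0.180 and 0.117 between HFD 4W and HFD 16W. Unlike numbers reached 0.132 (HFD 4W 2 with HFD 16W 3) and 0.0882 (HFD 4W 3 with HFD 16W 2). Where 1 of the libraries was numbered 1, unlike numbers gave -0.276 to -0.181. These values set the HFD libraries numbered 1 apart and do not show pairing by number, and the main fit used none. Between diets, libraries with the same number correlated at -0.0244 to -2.29e-05 at 4W and -0.00625 to -0.00256 at 16W, which gives no pairing.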

Additional observations from a re-analysis of the deposited data

Results flagged for a closer look

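In all, 3 of the 8 genes had a diet effect that differed between 16W and 4W by a test of the difference itself (limma, Benjamini-Hochberg over 9487 unigenes). Over all unigenes 10.1% were called in this test. Mlxipl differed by -3.30 on the log2 scale (adjusted p = 0.00215, range over the alternatives 0.000571 to 0.0148), with all 3 HFD libraries above ND at 4W and all 3 below ND at 16W. ACACB had a fitted difference of 3.21 (1.26 to 7.32 over the alternatives; adjusted p = 0.0093, range 0.00381 to 0.0353). That size is no fold change, since it depends on the pseudocount: the gene was listed at 0 in HFD at 4W and was not detected in ND at 16W. ACACB and Vldlr reached the minimum mean through the HFD 16W libraries alone, so they could be tested only because they were high there. Leaving them aside, 1 of 6 genes was called, and nothing is read from their higher calls. Vldlr differed by 1.92 (0.726 to 3.45 over the alternatives; adjusted p = 0.0126, range 0.000424 to 0.0388), and the second Vldlr row, not tested, was detected in 3 of 3 HFD libraries and 0 of 3 ND libraries at 16W. Groups of 3 are too small for a test of single outlying libraries.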

How the results depend on the processing

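Of 871 recomputed values of the 8 genes, 825 kept their direction and their side of the threshold, 23 lost a call, 5 gained one and 18 changed sign, all of the last from uncalled values. At 4W, 1 of the 8 genes in place of 2 was called with a replicate block (Mlxipl adjusted p = 0.0554, limma) and without the HFD libraries numbered 1, and 1 to 2 on leaving out single libraries. At 16W, 3 were called in place of 6 at a mean of at least 5, where 4 of the genes are no longer tested. For the change on HFD this minimum gave 2 in place of 5. Fewer unigenes are tested at this minimum, so these counts are not read against the shares of the main fit. Leaving out single libraries gave 6 at 16W, 3 to 4 for the difference, 0 for ND and 4 to 5 for HFD. Among the 8 genes the block changed no other call than Mlxipl at 4W and Gpam on HFD. Of the other lipid genes it ended the 4W call of Tkt (adjusted p = 0.0563, limma) and took the lower calls at 16W from 13 to 14.

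Sign changes were, for Fasn at 4W, 0.0882 with rescaling and 0.0394 without the HFD libraries numbered 1, and on leaving out single libraries -0.356 to 0.0394 at 4W, -0.38 to 0.35 at 16W, -0.28 to 0.45 for the difference and -0.15 to 0.58 for ND. Rescaling gave 0.0256 for Pnpla3 and 0.0101 for Plin4 at 4W. On leaving out single libraries Plin4 spanned -0.558 to 0.261 at 4W, -0.0175 to 0.833 at 16W and -0.34 to 0.61 on HFD. The difference for Dgat1 was -0.0315 without the HFD libraries numbered 1 and -0.0333 to 0.254 on leaving out single libraries. The cause of these changes was not tested.

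Over all unigenes, the 1149 calls at 4W became 613 at a mean of at least 5 and 721 without HFD 4W 3. The 3340 at 16W became 1158 at that minimum and 1908 among unigenes detected in all 12 libraries, an alternative chosen after seeing the data; both test fewer unigenes. Without the HFD libraries numbered 1 the 959 differences became 558 and the 1610 changes on HFD 1044 (914 at a mean of at least 5), with fewer libraries. The 36 on ND ranged from 0 to 238. Of the 31 other lipid genes, the 7 calls at 4W became 11 with rescaling and 4 without ND 4W 1 or HFD 4W 3, with 0 higher there and without HFD 4W 2. Unknown depth limits all low values, those of ACACB, Plin4 and Vldlr above all.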
